A study of Homo sapiens with 12 samples.

Results

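LNCaP is an established cell line from a human prostate cancer, and it carries the androgen receptor. Described here is its response to the androgen R1881 in cells that had also received a control siRNA. The members are 6 of the 12 arrays of the series, taken by their titles: 3 arrays of control siRNA with R1881 and 3 of control siRNA with vehicle. Serum in the culture medium was stripped of steroids and used at 2%, and phenol red was left out. Cells of every group received an siRNA, were replated 48 h later, and then received 10 nM R1881 or the ethanol vehicle for 72 h, with medium and treatment renewed after 48 h. The other 6 arrays carry an siRNA against ERRγ (estrogen-related receptor gamma) with R1881 or with vehicle, 3 each, and give the same treatment in separate cells. They also entered the normalization, the probe filter and the estimate of spread, and a fit of only the 6 arrays called 2688 genes higher and 3376 lower, against 3035 and 3814 with all 12. Labels call the arrays triplicates and do not say whether they came from separate cultures, so p-values reflect differences among these arrays only, and those may be technical.

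R1881 is a synthetic androgen that binds the androgen receptor, a transcription factor of the nuclear receptor family. The bound receptor enters the nucleus, binds DNA as a pair at short elements built on copies of AGAACA, and recruits coactivators or corepressors. In prostate epithelium it drives the secretory programme of luminal cells, with prostate-specific antigen among the products, and it lowers other genes, in part of neuronal and developmental kinds.

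On each of the 12 arrays 18695 to 20533 of 47231 probes were detected, meaning that their detection p-value was under 0.05, and 17123 genes were tested, 1 probe a gene. Between 2 of the 6 arrays the correlation over the tested genes was 0.99 to 0.9945 within a group and 0.9562 to 0.9641 between groups. Component 1 of these 6 arrays held 79% of the variance and parted R1881 (33.75 to 39.80) from vehicle (-37.98 to -34.74). Component 2 held 7.7% and ran mainly among the R1881 arrays, with replicate 1 at -19.41, replicate 3 at -1.174 and replicate 2 at 18.77. Of 18 luminal prostate markers, 17 were detected on all R1881 arrays and 15 on all vehicle arrays. Markers of other cell types were detected in part: 5 of 12 basal, 8 of 12 immune, 3 of 10 endothelial and 5 of 13 fibroblast and smooth muscle markers on at least 1 of the 6 arrays. On all R1881 arrays 2, 4, 1 and 3 of these were detected, and on all vehicle arrays 1, 2, 1 and 3. Their summed raw signal was 1300.4 to 1379.1 with R1881 and 1145.4 to 1197.1 with vehicle for basal markers, and 1360.2 to 1435.3 with R1881 and 1216.2 to 1318.6 with vehicle for immune markers. It was 966.85 to 997.02 with R1881 and 1022.3 to 1068.1 with vehicle for endothelial markers, and 1806.3 to 1954.8 with R1881 and 1558.5 to 1744.9 with vehicle for fibroblast and smooth muscle markers. *KRT5*, *PTPRC*, *CDH5* and *DCN*, each a defining marker of 1 of these types, were not detected, and the part of such cells in the results was not tested. Arrays measured bulk RNA, in which fewer cells of a kind and less RNA per cell cannot be told apart.

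R1881 changed a large part of the measured transcriptome in both directions. With the threshold at an adjusted p under 0.05 (limma, Benjamini-Hochberg over all genes), 6849 genes were called (40% of those tested), of which 3035 were higher with R1881 (17.7%) and 3814 lower (22.3%). Most of these changes were small: the median log2 change was 0.54 among the higher genes and -0.55 among the lower ones. At least 2-fold changes numbered 511 upward (2.98%) and 538 downward (3.14%). Beyond 4-fold 119 genes were higher and 70 lower (1.1% together), and beyond 8-fold 42 were higher and 14 lower. The 4-fold counts were 43 higher and 23 lower without background correction, 67 and 31 with a background offset of 50, and 31 and 13 in the authors' table. The 3 values of one group lay wholly above those of the other for 8055 genes (47%).

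Of the genes tested, 10274 were not called. The median width, from the estimate to one end, of the 95% confidence interval was 0.253 on the log2 scale. Over all tested genes, that interval lay within a 1.5-fold change in either direction for 10291 and within a 1.2-fold change for 922.

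**Figure D1:**
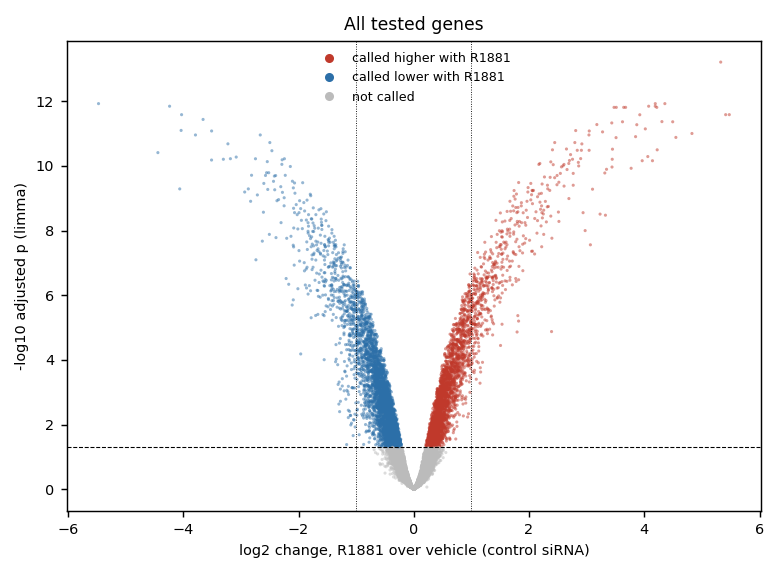
Each point is 1 of the 17123 tested genes, with the log2 change of R1881 over vehicle on the horizontal axis and -log10 of the adjusted p (limma) on the vertical axis. Red points were called higher and blue points lower, grey points were not called, the dashed line marks the threshold and the dotted lines a 2-fold change. The 3035 higher and 3814 lower genes form 2 arms of similar width.

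Genes with the largest increases among those detected in both treatments included enzymes, cytoskeletal genes and a ubiquitin ligase family beside the prostate secretory genes. *KLK3*, the gene of prostate-specific antigen, had normalized log2 signals of 10.88, 11.24 and 10.98 with R1881, against 5.75, 5.45 and 5.48 with vehicle, a 44.5-fold difference (adjusted p = 2.59e-12). *GNMT* encodes glycine N-methyltransferase, which consumes the methyl donor S-adenosylmethionine. Its log2 signals were 10.63, 10.80 and 10.95 with R1881, against 5.36, 5.64 and 5.16 with vehicle, a 42.6-fold difference (adjusted p = 2.59e-12). No R1881 array of either gene came near a vehicle array.

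The sizes of these changes depend on the probe and on the scale. *KLK3* had 3 kept probes, whose log2 changes ran between 0.74 and 5.47. In the authors' normalized table the change of *KLK3* was 3.48 on the log2 scale and that of *GNMT* 3.27. The tubulin gene *TUBA3D* had 2 kept probes with changes of 4.55 and 6.35, and the transcription factor gene *MAF* had 2 with 0.97 and 4.02. Vehicle signals of *KLK3*, *GNMT* and *MAF* lay near the background, between 109.2 and 142.8 raw units where the median probe of an array was at 93.883 to 100.4. So did those of *TRIM51* (126.0 to 149.4), *TUBA3D* (128.9 to 131.9), *TRIM48* (100.6 to 106.3) and *TM4SF1* (98.13 to 119.0). *HERC3* was at 92.61 to 111.6 and was detected on 1 of the 3 vehicle arrays. In the authors' table *TRIM48*, *TM4SF1* and *HERC3* had log2 changes of 1.73, 1.52 and 1.03.

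The other leading increases fall into several roles. *TRIM51* (log2 change 4.83 ± 0.14 SE) and *TRIM48* (4.22 ± 0.14) belong to the TRIM family of RING-finger proteins, and both have close paralogs. *UGT2B28*, which encodes a glucuronosyltransferase that conjugates androgens, changed by 4.06 ± 0.14, and *SORD*, the sorbitol dehydrogenase gene, by 3.45 ± 0.11. Among surface and transport proteins were the serine protease gene *TMPRSS2* (3.67 ± 0.09), the prostate solute carrier gene *SLC45A3* (3.62 ± 0.10) and the tetraspanin-like *TM4SF1* (3.77 ± 0.15). *FKBP5*, which encodes a co-chaperone of steroid receptors, had log2 signals of 11.74, 11.89 and 11.90 with R1881, against 7.84, 7.74 and 7.73 with vehicle. *NDRG1* changed by 3.92 ± 0.10, *RHOU*, which encodes an atypical small GTPase, by 3.43 ± 0.09 and the ubiquitin ligase gene *HERC3* by 3.34 ± 0.13. All of these adjusted p-values lay at or below 1.27e-10.

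**Figure D2:**
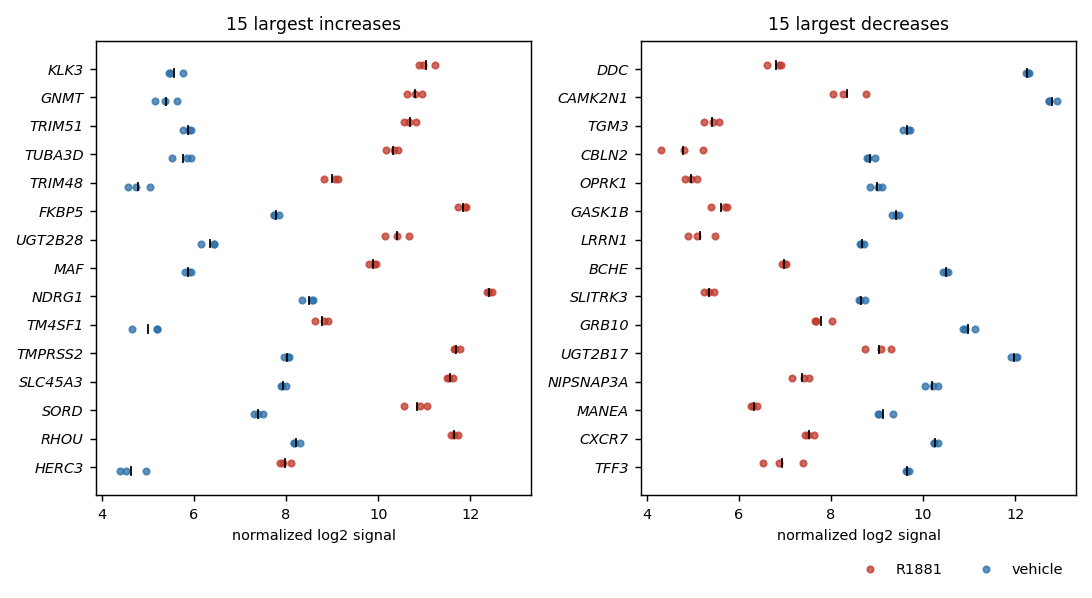
Normalized log2 signal (horizontal axis) of the 15 largest increases, left, and the 15 largest decreases, right, among genes detected on at least 1 array of each group. Each dot is 1 array, red for R1881 above blue for vehicle, and the short bars are means of 3. In every gene shown the 3 arrays of one treatment lie apart from the 3 of the other.

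Promoters are shown for 3 of these genes, chosen because a searched window held a match to letters of the androgen receptor element. Those of other leading increases, *TRIM51*, *TRIM48*, *SLC45A3* and *RHOU* among them, held no match. Sequences are those of RefSeq on GRCh38.p14, from 250 bases before a start site to 50 after it, printed 5′ to 3′ along the gene. Capitals mark a match to the palindromic element in *GNMT*, read as GNACA and TGTNC with any 3 bases between them, and to the single site AGAACA in *KLK3* and *FKBP5*. Both were searched on both strands, and a match to one may overlap a match to the other. The *KLK3* window is chr19:50854665-50854964 on the plus strand, with the match beginning at -170 from the start site. The *GNMT* window is chr6:42960504-42960803 on the plus strand, with the match at 19, and the *FKBP5* window, the one of its 2 listed promoters that held a match, is chr6:35728534-35728833 on the minus strand, with the match at 0.
KLK3: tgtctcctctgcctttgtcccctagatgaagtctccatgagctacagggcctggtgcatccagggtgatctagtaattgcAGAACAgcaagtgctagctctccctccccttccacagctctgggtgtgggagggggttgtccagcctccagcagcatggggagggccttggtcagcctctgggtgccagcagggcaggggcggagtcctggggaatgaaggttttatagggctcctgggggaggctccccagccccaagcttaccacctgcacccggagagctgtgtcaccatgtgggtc
GNMT: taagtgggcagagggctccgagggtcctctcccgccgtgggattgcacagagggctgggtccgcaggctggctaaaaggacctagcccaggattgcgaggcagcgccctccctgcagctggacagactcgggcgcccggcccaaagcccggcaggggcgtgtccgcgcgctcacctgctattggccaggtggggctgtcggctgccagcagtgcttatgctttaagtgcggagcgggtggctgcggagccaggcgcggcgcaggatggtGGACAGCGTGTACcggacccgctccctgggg
FKBP5: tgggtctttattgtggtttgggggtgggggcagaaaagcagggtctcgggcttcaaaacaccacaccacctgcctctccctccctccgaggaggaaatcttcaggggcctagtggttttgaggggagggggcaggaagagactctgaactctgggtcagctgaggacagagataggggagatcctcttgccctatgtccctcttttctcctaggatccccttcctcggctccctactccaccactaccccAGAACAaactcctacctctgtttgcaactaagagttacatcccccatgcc

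Few promoters held the palindrome, among changed genes and among all genes. It was found in 0.377% of the 531 promoters of genes at least 2-fold higher, in 0.742% of the 539 of genes at least 2-fold lower, and in 0.25% of the 14422 of all tested genes with a promoter in the table. The single site was found in 7.72%, 11.9% and 9.99% of the same promoters, and in 14.8% of all 35116 windows of this length in the table. Of the 50 leading genes 34 had a promoter read here, with 48 promoters, of which 1 held the palindrome and 8 the single site. The single site lay in promoters of *KLK3* and *FKBP5*, which rose, and of *GASK1B*, *PLA2G2A*, *HEPACAM* and *SLITRK3*, which fell. Promoters on chromosome 8 were left out of this count of leading genes, though not of the shares above. These are counts of letters in a 300-base window and say nothing of binding.

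Some genes crossed the detection limit. With R1881 161 genes (0.94% of those tested) were detected on all 3 arrays and on no vehicle array, and 245 (1.43%) were detected only with vehicle. A stricter probe filter left 74 and 89, and without 1 array, when fewer arrays must be detected, the counts were 212 to 257 and 310 to 379. They moved by over 1.5 times without R1881 replicate 1 (244 and 376), for the first count without vehicle replicate 1 (257), and for the second without R1881 replicate 2 (379) or vehicle replicate 3 (378). Of the 161 and 245 genes, 150 and 206 were also called. For such genes a fold is a lower bound on the background-corrected scale only, taken against the dimmest signal that counted as detected. The largest bound upward was that of the tubulin gene *TUBA3E*, at least 31.9-fold higher, with raw signals of 865.5, 909.3 and 819.9 with R1881, against 91.68, 89.10 and 86.72 with vehicle. On other scales its change was smaller, with a log2 change of 3.19 without background correction and 2.24 in the authors' table, in place of 5.32. *KLK2*, a kallikrein that processes other prostate proteases, was at least 16.9-fold higher, the acute-phase protein genes *ORM1* and *ORM2* at least 15.8-fold and 9.16-fold, and the glucose transporter gene *SLC2A3* at least 14.5-fold. *ZNF812* (at least 15.3-fold), *TRIM49D2* (11.8), *TUBA3C* (9.86), *TRIM53* (8.72) and the calcium-binding *S100P* (6.94) complete the 10 largest. Bounds are those of the brightest probe, and the other probes of *KLK2* and *TRIM53* had smaller log2 changes, 2.74 and 2.0. Tubulin, TRIM and orosomucoid genes have near-identical copies, which the probes were not tested to tell apart.

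In the other direction *PLA2G2A*, which encodes a secreted phospholipase, was at least 11.4-fold lower with R1881. Its raw signals were 98.14, 99.33 and 99.43 with R1881, all at background, against 432.8, 325.3 and 294.8 with vehicle. The kainate receptor subunit gene *GRIK1* was at least 7.27-fold lower, though another of its 3 probes changed by -0.81, the fibrillar collagen gene *COL5A2* at least 7.02-fold and the cholesterol exporter gene *ABCA1* at least 4.37-fold. *PCED1B* (at least 4.86-fold), the adhesion gene *HEPACAM* (3.78), the homeobox gene *HOXC8* (3.71), the synaptic adhesion gene *NLGN1* (3.34), *ELAPOR1* (3.23) and the acyl chain elongation gene *HACD1* (3.22) complete the 10.

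Among genes detected in both treatments, *DDC* had the largest decrease. It is the gene of DOPA decarboxylase, a step in dopamine and serotonin synthesis. Its raw signals were 186.9, 201.9 and 177.8 with R1881, against 6028, 4777 and 4772 with vehicle, a 44.3-fold decrease (adjusted p = 1.18e-12). *CAMK2N1*, an inhibitor gene of calmodulin-dependent kinase II, had log2 signals of 8.75, 8.04 and 8.27 with R1881, against 12.74, 12.90 and 12.74 with vehicle (log2 change -4.44 ± 0.15, adjusted p = 3.87e-11). The kappa opioid receptor gene *OPRK1* (-4.04 ± 0.12), the synapse organizer *CBLN2* (-4.06 ± 0.18), *SLITRK3* (-3.30 ± 0.12) and *LRRN1* (-3.51 ± 0.13), both leucine-rich membrane proteins of neurons, and *BCHE*, the butyrylcholinesterase gene (-3.51 ± 0.10), also fell. *CBLN2* was detected on 2 of the 3 R1881 arrays. Summed over 13 neuroendocrine markers, raw signal was 1344.5 to 1378.7 with R1881 and 6002.3 to 7318.4 with vehicle. The signal of *DDC* made up most of the vehicle sums. Of the 13 markers 5 were detected on at least 1 of the 6 arrays, *CHGA* and *INSM1* among them, and 8 on none, *CHGB* and *SYP* among them. The part of such cells in these results was not tested.

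Further leading decreases were those of enzymes, adaptors and secreted or surface proteins. *TGM3*, a transglutaminase gene, had log2 signals of 5.44, 5.56 and 5.25 with R1881, against 9.68, 9.57 and 9.71 with vehicle. *GRB10*, an adaptor of insulin and growth factor receptors, changed by -3.18 ± 0.11, though its 4 kept probes ran between -3.27 and -0.17. *GASK1B* changed by -3.79 ± 0.11 on its brightest probe, with 3 kept probes between -3.79 and -0.32. *MANEA*, a Golgi endomannosidase gene (-2.81 ± 0.11), *NIPSNAP3A* (-2.83 ± 0.14), the trefoil peptide gene *TFF3* (-2.74 ± 0.20) and *CXCR7*, the older name on the array for the atypical chemokine receptor gene *ACKR3* (-2.75 ± 0.10), fell as well.

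One enzyme family moved both ways. UGT2B glucuronosyltransferases inactivate androgens by conjugation. *UGT2B28* had log2 signals of 10.14, 10.67 and 10.40 with R1881, against 6.43, 6.44 and 6.16 with vehicle. *UGT2B17* had 8.74, 9.31 and 9.09 with R1881, against 11.90, 12.01 and 12.03 with vehicle, and its 3 probes changed by -2.98 to -2.91. *UGT2B15* had 7.42, 7.97 and 7.66 with R1881, against 10.38, 10.49 and 10.31 with vehicle, with probes at -2.71 and -1.50. The 3 genes are close paralogs, so their probes may share signal, yet the groups did not overlap in any of them. Over 105 oxidoreductases and conjugating enzymes, 29 were higher and 24 lower.

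Gene lists were read against the shares over all tested genes, 17.7% higher and 22.3% lower, and their median against -0.028, the median log2 change of all genes. No set test was run, so a count beside these shares is a description. Luminal prostate markers moved both ways: of 17 tested, 8 were higher (47.1%) and 7 lower (41.2%), with a median of -0.103. At least 2-fold changes numbered 8 upward and 1 downward, and *FOLH1* (-0.86 ± 0.11) was among the lower ones.

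**Figure D3:**
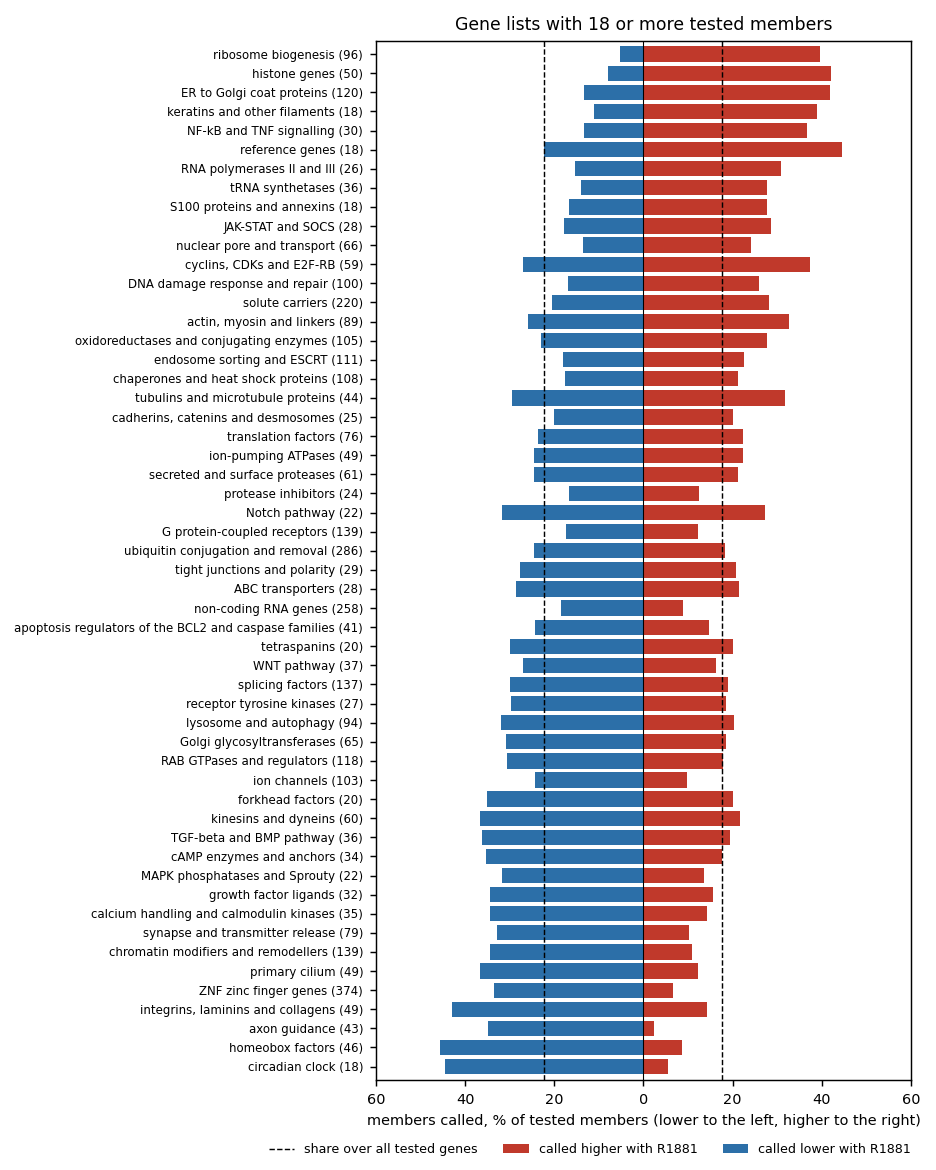
Share of each list's tested members called higher (red, to the right) or lower (blue, to the left) with R1881, in percent, for 54 lists with 18 or more tested members, given in parentheses, ordered by the difference of the 2 shares. Dashed lines mark the shares over all tested genes, 17.7% and 22.3%. Ribosome biogenesis, histone and ER to Golgi lists lie at the top. The circadian, homeobox, axon guidance, matrix (integrins, laminins and collagens) and ZNF lists lie at the bottom.

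Homeobox and zinc finger genes had more members lower than higher. Of 46 homeobox genes 4 were higher and 21 lower (45.7%), with a median log2 change of -0.286. *IRX3*, a patterning factor, had log2 signals of 9.56, 9.22 and 9.39 with R1881, against 11.70, 11.86 and 11.88 with vehicle (adjusted p = 2.06e-10). The groups lay well apart. *MSX1*, another patterning factor, rose by 0.66 ± 0.09. Of 374 ZNF zinc finger genes 25 were higher (6.68%) and 125 lower (33.4%), with a median of -0.174. *ZNF629* (-1.64 ± 0.13) and *ZNF462* (-1.48 ± 0.09) fell most, though the other *ZNF629* probe changed by -0.51. *ZNF385B* rose by 1.15 ± 0.10, with 3 probes between -0.07 and 1.15. In the authors' table the medians were -0.036 for homeobox and -0.027 for ZNF genes, with 21 and 114 members lower.

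Smaller factor families were mixed. Among luminal factors 6 of 14 were higher and 5 lower: *SPDEF* rose by 1.52 ± 0.09, while *GATA2* (-1.62 ± 0.10) and *HOXB13* (-0.71 ± 0.11), both partners of the androgen receptor in prostate, fell. Of 10 SOX factors 0 were higher and 4 lower, among them *SOX4* (-1.02 ± 0.09). Kruppel-like and SP factors had 4 higher and 5 lower of 16, with *KLF6* (1.62 ± 0.10) and *KLF4* (1.39 ± 0.10) up. The number lower was 2 without R1881 replicate 1 or vehicle replicate 1, and 3 without R1881 replicate 3 or vehicle replicate 2, with scaling to a common median or with only the 6 arrays. Forkhead factors had 4 higher and 7 lower of 20. Among 12 immediate early factors 1 rose, *ATF3* (1.79 ± 0.10), and 3 fell, including *JUN* (-1.02 ± 0.16). Without R1881 replicate 2, or in the authors' table, 2 rose.

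Of 18 circadian clock genes 1 was higher and 8 were lower (44.4%), with a median of -0.338. The riser was *BHLHE40*, a repressor in the clock loop, at 9.57, 9.53 and 9.63 with R1881, against 6.68, 6.81 and 6.86 with vehicle (adjusted p = 1.89e-11). *CIART* (-0.73 ± 0.16) and the kinase gene *CSNK1E* (-0.70 ± 0.09) were the largest falls of the list.

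Chromatin genes had more members lower than higher as well. Of 139 modifiers and remodellers 15 were higher (10.8%) and 48 lower (34.5%). *SMARCD3*, a subunit of the SWI/SNF remodelling complex, had 5.70, 5.56 and 5.61 with R1881, against 7.78, 7.99 and 7.85 with vehicle, although its 3 probes changed by -2.40 to -0.12. *KDM6A*, a histone demethylase gene, fell by 1.40 on the log2 scale, while the histone methyltransferase gene *KMT5A* (1.04 ± 0.09) and *UHRF1*, needed to maintain DNA methylation (0.88 ± 0.09), rose. Scaling the arrays to a common median in place of quantile normalization left 8 higher and 46 lower, and 9 were higher without R1881 replicate 2 or without vehicle replicate 2.

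Histone genes had more members higher than lower, with 21 of 50 higher (42.0%) and 4 lower. *H2BC11* (1.37 ± 0.15) and *H2BC4* (0.96 ± 0.09) rose most, and *MACROH2A2*, a variant histone gene, fell by 0.89 on the log2 scale. Histone genes have near-identical copies that probes may not separate.

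Ribosome biogenesis genes, which build ribosomal subunits in the nucleolus, had more members higher than lower. Of 96 tested genes 38 rose (39.6%) and 5 fell (5.21%), with a median of 0.221 and none past 2-fold, and 53 were not called. *NOP16* had 8.89, 8.73 and 8.85 with R1881, against 8.08, 7.73 and 7.81 with vehicle, and *RRP15*, which acts in large subunit assembly, rose by 0.86 ± 0.12. *NOP53* fell by 0.76 on the log2 scale. By the values of the authors' normalized table, 42 rose and 8 fell, and leaving out 1 array gave 32 to 39 rises. Falls numbered 3 without R1881 replicate 3 or vehicle replicate 3, and 9 without background correction.

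Of 26 subunits of RNA polymerases II and III 8 were higher (30.8%) and 4 lower (15.4%), with 2 lower without R1881 replicate 2 or vehicle replicate 3. *POLR3G* rose (1.18 ± 0.14, with 0.25 on its other probe) and its paralog *POLR3GL* fell (2.0-fold, adjusted p = 9e-07). Splicing factors had 26 higher and 41 lower (29.9%) of 137, and the number higher was 17 without R1881 replicate 2 and 14 with scaling to a common median. *SNRPA1* rose by 1.11 ± 0.08, and *SRPK2*, a kinase of splicing factors, changed by -1.66 ± 0.11 on its brightest probe, with 3 probes between -1.66 and 0.33.

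Translation factors had 17 higher (22.4%) and 18 lower (23.7%) of 76. The tRNA synthetases had 10 higher (27.8%) and 5 lower (13.9%) of 36. Their number higher was 5 without vehicle replicate 2, and 6 without R1881 replicate 2, R1881 replicate 3 or vehicle replicate 3, with scaling to a common median or with only the 6 arrays. Their number lower was 3 with that scaling and 8 without background correction. Nuclear pore and transport genes had 16 higher (24.2%) and 9 lower (13.6%) of 66, with 4 lower under scaling to a common median and 15 in the authors' table. Non-coding RNA genes had 23 higher (8.91%) and 48 lower (18.6%) of 258.

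The list for the route from the endoplasmic reticulum (ER) to the Golgi, which also held genes with other roles, had more members higher than lower. Among its 120 tested genes, 50 were higher (41.7%) and 16 lower (13.3%), with a median log2 change of 0.223. *SPCS3*, a subunit of signal peptidase, had 8.08, 7.84 and 8.16 with R1881, against 6.57, 6.43 and 6.51 with vehicle (adjusted p = 5.37e-08). *SEC14L2*, which encodes a lipid-binding protein, rose by 1.44 ± 0.11, and the golgin genes *GOLGA8B* (-1.34 ± 0.10) and *GOLGA6B* (-1.05 ± 0.13), which have near-identical copies, fell. Leaving out 1 array gave 42 to 52 rises.

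RAB GTPases and their regulators, which direct vesicle traffic, had 21 higher (17.8%) and 36 lower (30.5%) of 118, with *RAB3B*, of regulated secretion, up by 1.83 ± 0.10. Endosome and ESCRT genes had 25 higher and 20 lower of 111, with 12 lower under scaling to a common median. Lysosome and autophagy genes had 19 and 30 of 94, with *NPC1*, which exports cholesterol from lysosomes, at 9.30, 9.38 and 9.40 with R1881, against 6.76, 6.75 and 6.80 with vehicle. *WIPI1*, which acts in autophagosome formation, rose by 2.10 ± 0.11. Of 65 Golgi glycosyltransferases 12 were higher and 20 lower. *ST6GALNAC1*, which makes the sialyl-Tn antigen, had 7.73, 7.80 and 7.66 with R1881, against 4.52, 4.69 and 4.44 with vehicle, where 1 array detected it.

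Secreted proteases and their inhibitors had called members in both directions. Of 61 proteases 13 were higher (21.3%) and 15 lower (24.6%), near the shares over all tested genes, 17.7% and 22.3%. The kallikreins *KLK3* and *KLK2* rose, and the procollagen protease genes *TLL1* (at least 2.77-fold) and *BMP1* (-1.26 ± 0.18) fell. The other *BMP1* probe changed by 0.14. Of 24 inhibitors 3 were higher (12.5%) and 4 lower (16.7%), both below those shares. *SERPINE2*, which encodes a serpin that inhibits thrombin and urokinase, had 10.23, 9.65 and 9.69 with R1881, against 6.62, 6.48 and 6.78 with vehicle (adjusted p = 3.09e-09). *TIMP2*, a metalloproteinase inhibitor gene, fell by 1.80 on the log2 scale.

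Matrix, guidance and synaptic lists had more members lower than higher. Integrins, laminins and collagens had 7 higher and 21 lower of 49 (42.9%), with a median of -0.219. The laminin chain gene *LAMA1*, whose brightest probe was below detection in vehicle, was at least 3.18-fold higher on that probe, with 3 probes between -0.09 and 2.04, and *COL16A1* fell by 1.48 on the log2 scale. By the authors' normalized values, 16 of the list fell. Axon guidance genes had 1 higher (2.33%) and 15 lower (34.9%) of 43, among them the ephrin gene *EFNB3* (-1.56 ± 0.13) and the ephrin receptor gene *EPHA3* (-1.56 ± 0.08, with -0.23 on its other probe). The riser, *EFNA5* (0.35 ± 0.11, adjusted p = 0.0197), lost its call with scaling to a common median (adjusted p = 0.0713) and without R1881 replicate 1, R1881 replicate 2 or vehicle replicate 2 (0.0673, 0.0591 and 0.0811).

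Synapse genes had 8 higher and 26 lower (32.9%) of 79. Against that direction, the scaffold gene *HOMER2* had 10.88, 10.95 and 10.92 with R1881, against 7.82, 7.81 and 7.99 with vehicle, and the neurexin-family gene *CNTNAP2* had 8.19, 8.22 and 8.23 with R1881, against 6.14, 5.74 and 5.76 with vehicle. Ion channels had 10 higher (9.71%) and 25 lower (24.3%) of 103, with the cold sensor gene *TRPM8* at least 4.16-fold higher and the potassium channel gene *KCNN2* up by 2.19 ± 0.08. The other *TRPM8* probe had a log2 change of 1.97. Of 13 granins and peptide hormones 2 were higher and 6 lower, with 1 higher without vehicle replicate 3. *VGF*, which encodes a neuropeptide precursor, rose by 2.27 ± 0.09 and *RLN2*, the relaxin gene, fell by 2.28 on the log2 scale, with -0.51 on its other probe.

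Cadherins, catenins and desmosomes had 5 higher and 5 lower of 25, with *DSG2* (0.88 ± 0.09) up and *CDH26* (-1.84 ± 0.11) down. Tight junction and polarity genes had 6 higher and 8 lower of 29, with *CLDN8* up by 1.66 ± 0.10. Tetraspanins had 4 and 6 of 20.

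The primary cilium list had 6 higher (12.2%) and 18 lower (36.7%) of 49, with a median of -0.232. Without R1881 replicate 3 the number higher was 3. *TCTN1*, of the transition zone, fell by 1.14 and *BBS1* by 1.05 on the log2 scale, while its complex partner *BBS4* rose by 1.06 ± 0.12. Septins had 1 higher and 5 lower of 11, with 2 higher by the mean of a gene's probes, and kinesins and dyneins 13 and 22 of 60.

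Cytoskeletal lists held large changes of single genes. Tubulin and microtubule genes had 14 higher and 13 lower of 44. Actin, myosin and linker genes had 29 higher (32.6%) and 23 lower (25.8%) of 89, with the actin bundler *LCP1* at 9.40, 9.35 and 9.37 with R1881, against 7.46, 7.68 and 7.56 with vehicle, and non-muscle myosin *MYH10* down by 1.42 on the log2 scale. Of 18 keratins and other filaments 7 were higher and 2 lower. *KRT6C* was at least 6.44-fold higher, and *KRT6B* at least 9.34-fold on its brightest probe, whose signals were 7.57, 7.93 and 7.89 with R1881, against 4.20, 4.43 and 4.24 with vehicle. Another *KRT6B* probe changed by -0.04, and the KRT6 genes are near-identical copies.

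Receptor tyrosine kinases had 5 higher and 8 lower of 27. The number higher was 3 without R1881 replicate 1 or vehicle replicate 1 and under the stricter probe filter. *MERTK* had 8.39, 8.27 and 8.64 with R1881, against 5.96, 6.29 and 6.09 with vehicle, and *ERBB2* had 8.80, 8.36 and 8.69 with R1881, against 9.72, 9.84 and 10.10 with vehicle. Growth factor ligand genes had 5 higher and 11 lower of 32, with *ANGPT2*, a ligand of the TIE2 receptor, at least 5.85-fold higher and midkine *MDK* down by 1.76 on the log2 scale. The bound of *ANGPT2* is that of its brightest probe, and its other probe had a log2 change of 1.94. MAPK phosphatases and Sprouty genes had 3 and 7 of 22.

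Developmental pathways had members in both directions. TGF-beta and BMP genes had 7 higher and 13 lower of 36. *ID2* rose by 1.97 ± 0.11 and *ID3*, which encodes a related inhibitor of helix-loop-helix factors, was at least 2.95-fold lower. Notch pathway genes had 6 higher and 7 lower of 22. *HES6* had 13.08, 13.23 and 13.16 with R1881, against 10.30, 10.32 and 10.42 with vehicle, and *LFNG*, which modifies Notch, fell by 1.79. WNT genes had 6 and 10 of 37, with the receptor genes *FZD5* up (1.71 ± 0.14) and *FZD3* down (-1.18 ± 0.12). Hippo and YAP genes had 3 higher and 3 lower of 16, with 1 higher without R1881 replicate 2 or R1881 replicate 3 and under scaling to a common median.

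In the second messenger lists, those of calcium and cAMP, the share lower lay above the 22.3% over all tested genes. Calcium handling and calmodulin kinase genes had 5 higher (14.3%) and 12 lower (34.3%) of 35. *CAMK2N1* had the largest fall, the calcium pump *ATP2B1* was at -1.88 ± 0.16 and *CAMKK2*, a kinase upstream of AMPK, at 0.94 ± 0.10. Enzymes and anchors of cAMP had 6 higher (17.6%, near the 17.7% over all tested genes) and 12 lower (35.3%) of 34. *PKIB*, which encodes an inhibitor of protein kinase A, had 5.92, 6.39 and 6.31 with R1881, against 8.17, 8.35 and 8.35 with vehicle. G protein-coupled receptor genes had 17 higher (12.2%) and 24 lower (17.3%) of 139 tested, out of 647 on the array. Both shares lay below those over all tested genes. The prostaglandin receptor gene *PTGER4* rose by 2.54 ± 0.10 and the lysophosphatidate receptor gene *LPAR3* by 2.32 ± 0.10.

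Inflammatory signalling genes had more members higher than lower. NF-kB and TNF genes had 11 higher (36.7%) and 4 lower of 30, with a median of 0.192. *TNFAIP8* rose by 2.23 ± 0.12 and the inhibitor gene *NFKBIA* by 0.95 ± 0.08, while *NFKB1* itself fell by 0.96 on the log2 scale. JAK-STAT and SOCS genes had 8 higher and 5 lower of 28, with *SOCS2* up by 1.52 ± 0.10. The number higher was 5 without vehicle replicate 2, and the number lower 3 without R1881 replicate 2 or vehicle replicate 3, with scaling to a common median or with only the 6 arrays. S100 proteins and annexins had 5 and 3 of 18, with *ANXA1* at least 3.6-fold higher.

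Cyclins, CDKs and E2F-RB genes had 22 higher (37.3%) and 16 lower (27.1%) of 59, with 10 lower without vehicle replicate 3 and 9 under scaling to a common median. *CDKN2B*, a CDK inhibitor gene, had 6.90, 7.04 and 6.89 with R1881, against 4.56, 4.95 and 4.74 with vehicle, while *CCNG2* fell by 1.56 on the log2 scale. *CDKN2C*, of the same family, changed by -1.38 on its brightest probe and by 0.47 on the other. DNA repair genes had 26 higher and 17 lower of 100. *BARD1*, the partner gene of *BRCA1*, had 6.54, 6.66 and 6.66 with R1881, against 9.31, 9.30 and 9.23 with vehicle (adjusted p = 1.1e-11). BCL2 and caspase genes had 6 and 10 of 41. The survival factor gene *MCL1* fell by 1.10 on the log2 scale on its brightest probe, and its other probe changed by -0.25.

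Ubiquitin conjugation and removal genes had 52 higher (18.2%) and 70 lower (24.5%) of 286, with *HERC5* up by 2.21 ± 0.10 and *FBXO2* down by 1.86 on the log2 scale. Chaperones had 23 higher (21.3%) and 19 lower (17.6%) of 108.

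Solute carriers had 62 higher (28.2%) and 45 lower (20.5%) of 220, and 15 of them were at least 2-fold higher against 5 lower. *SLC12A2*, a sodium-potassium-chloride cotransporter gene, had 6.76, 6.84 and 6.74 with R1881, against 9.14, 8.95 and 9.17 with vehicle, and the choline transporter gene *SLC44A1* fell by 2.28 on the log2 scale. ABC transporters had 6 higher and 8 lower of 28, with 3 higher without R1881 replicate 2 and under scaling to a common median. Among them *ABCC4* rose by 1.92 ± 0.12, and *ABCG1*, which like *ABCA1* exports sterols, had 5.26, 4.93 and 5.33 with R1881, against 6.77, 6.76 and 6.84 with vehicle. Its 3 probes changed by -1.62 to -0.36. Ion-pumping ATPases had 11 and 12 of 49, with *ATP1B1*, which encodes a beta subunit of the sodium pump, at -1.60 ± 0.09.

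Genes often taken as references included called members in both directions. Of 18 tested, 8 were higher (44.4%) and 4 lower, with a median of 0.231. *B2M*, the beta-2-microglobulin gene, had 11.36, 11.71 and 11.46 with R1881, against 10.01, 9.92 and 9.56 with vehicle (adjusted p = 1.26e-07). *PGK1* rose by 0.73 ± 0.15, while *IPO8* fell by 0.37 on the log2 scale. In the authors' table the counts were 8 and 4 as well, and with scaling to a common median 6 and 2. The number higher was 4 without R1881 replicate 2, and 5 without vehicle replicate 2, with a replicate block or in a fit of only the 6 arrays. The number lower was 2 without vehicle replicate 3 and with only the 6 arrays.

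Position along the chromosome was not used to choose genes. Of 12575 tested genes placed by RefSeq, 15 runs held 3 or more tested neighbours that were all called in 1 direction and all changed at least 2-fold, 6 upward and 9 downward. The longest was *MVB12B*, *ZBTB43*, *ZBTB34*, *RALGPS1* and *GARNL3*, all lower, with log2 changes of -1.27, -2.55, -1.29, -1.25 and -1.56. A second *MVB12B* probe changed by 0.12. *HOXC13*, *HOXC9*, *HOXC8* and *HOXC4* were all lower (-1.66, -1.78, at least 3.71-fold and -2.37). The kallikreins *KLK3*, *KLK2*, *KLKP1* and *KLK4* were all higher. *KLK4* had 11.95, 12.39 and 12.09 with R1881, against 9.94, 10.06 and 10.00 with vehicle.

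Further runs were shorter or held unrelated genes. *SI*, *SLITRK3*, *BCHE* and *ZBBX*, which encode a brush border disaccharidase, a synaptic protein, a cholinesterase and a zinc finger protein, were all lower. The other 4 named runs were *RTN1*, *PCNX4* and *DHRS7* (higher), *ARHGAP28*, *LAMA1* and *PTPRM* (higher), *TLE3*, *LARP6* and *LRRC49* (lower), and *ABCG1*, *TFF3* and *RSPH1* (lower). Changes in runs are those of the brightest probes, and other probes of *RTN1*, *ARHGAP28* and *LAMA1* changed by as little as 0.29, 0.57 and -0.09. The number of runs was 8 with a background offset of 50, 7 with no filter on detection, 2 without background correction and 1 in the authors' table.

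Probes of 1 gene can lie in different transcripts. Among 3781 genes with 2 or more kept probes, 53 (1.4%) had probes called in opposite directions, against 937 whose probes were all called in 1 direction. *BAD*, which encodes a BCL2-family protein that promotes cell death, had a probe for transcript variant 1 at 4.71, 5.05 and 4.50 with R1881, against 6.24, 6.30 and 6.25 with vehicle. A probe for variant 2 had 6.95, 6.65 and 7.01 with R1881, against 5.93, 6.20 and 5.79 with vehicle, and a second, brighter one for variant 2 was not called (-0.19, adjusted p = 0.21). The 2 probes of *MAD1L1*, a spindle checkpoint gene, changed by 0.71 and -1.12, and both are listed for variant 2.

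The other named cases include genes with known copies. *HINT3* had probes at 0.46 and -1.11, the replication helicase gene *MCM8* at 0.95 and -0.67, and the leptin gene *LEP* at 1.27 and -0.64. *CDC42*, a small GTPase gene, had 2 probes for variant 3 at 0.98 and 0.50 and 1 for variant 2 at -0.40, which was not detected with R1881. *RPS26* (0.82 and -0.60) and *SDHAP1* (6 probes between -0.71 and 0.74) have near-identical copies elsewhere in the genome. What the probes of *HINT3*, *LEP*, *RPS26* and *SDHAP1* target was not given by variant, and no probe position was used here.

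**Figure D4:**
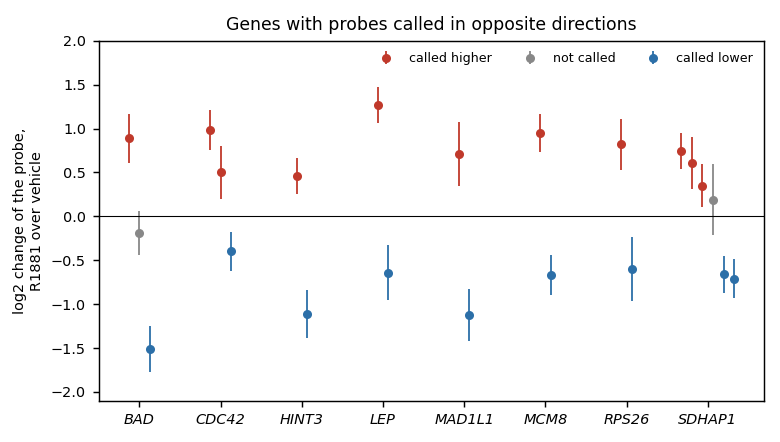
Log2 change of R1881 over vehicle (vertical axis) for each kept probe of the 8 genes whose oppositely called probes differ most. Points are probes with 95% intervals, red called higher, blue called lower and grey not called. For every gene shown, at least 1 interval lies wholly above 0 and at least 1 wholly below.

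The same treatment was given to cells with the ERRγ siRNA, measured on arrays that share no sample with the comparison above. There 6346 genes were called (37.1%), 2851 higher (16.7%) and 3495 lower (20.4%). Of the 6849 genes called with the control siRNA, 6475 (94.5%) changed in the same direction and 4861 (71.0%) were called in it, while 16 were called in the opposite one, none of them past 2-fold with the control siRNA. Among the 1049 genes past 2-fold, 1033 kept the direction, leaving 16 that did not, and 1007 were called in it. Past 4-fold, 189 of 189 kept the direction and 188 were called. The ratio of the 2 log2 changes, ERRγ siRNA over control siRNA, had a median of 0.86 over called genes, 0.94 past 2-fold and 0.99 past 4-fold. These genes were chosen by their call and size with the control siRNA, a choice that can by itself lower the ratio. The ratio therefore does not tell whether the response was weaker with the ERRγ siRNA. *DDC* changed by -5.75 with the ERRγ siRNA and -5.47 with the control siRNA, and *TUBA3D* by 4.64 and 4.55. The test of the difference between the 2 responses called 0 genes (limma, interaction term), with 1893 of the 17123 tested genes at an unadjusted p under 0.05.

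**Figure D5:**
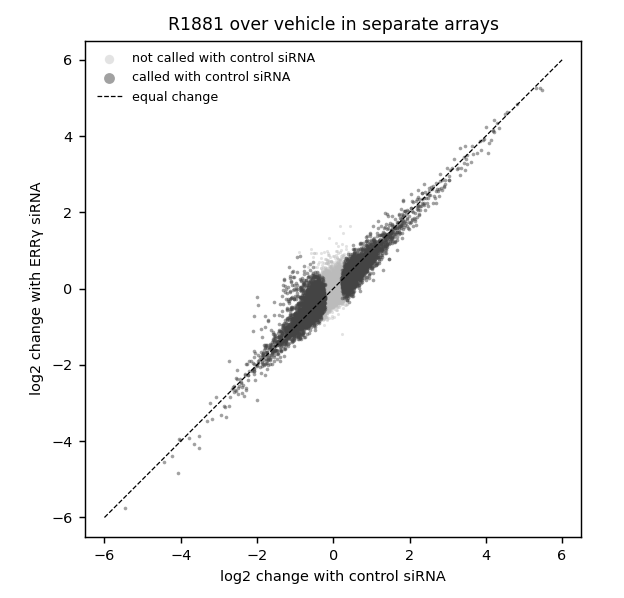
Log2 change of R1881 over vehicle with the control siRNA (horizontal axis) and with the ERRγ siRNA (vertical axis), 1 point a gene, dark where called with the control siRNA. The dashed line marks equal change. Genes past 4-fold lie along it, and a group near -1 on the horizontal axis lies near 0 on the vertical axis.

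The group off the line, which was chosen after its values were seen, consists of the 16 genes past 2-fold with the opposite sign with the ERRγ siRNA, all of them lower with R1881 under the control siRNA. They include the small RNA genes *RN7SK*, *SNORA57* and *SNORD104*, the histone gene *H4C12*, *NDUFA3* and *NICOL1*, and 10 are known only by a LOC number. *RN7SK*, the RNA that holds the elongation kinase P-TEFb inactive, had 7.01, 6.04 and 6.41 with R1881, against 7.70, 7.66 and 7.69 with vehicle. With the ERRγ siRNA it had 6.94, 6.62 and 6.66 with R1881, against 6.45, 6.97 and 6.66 with vehicle.

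In all 16 the R1881 array of replicate 2, the array highest on component 2, was the lowest of its group. Without it 12 of the 16 were still called, and *RN7SK* changed by -0.98 in place of -1.20 (adjusted p = 0.000976). *SNORD104* lost its call (adjusted p = 0.183). The interaction was not called for any of the 16 (adjusted p = 0.225 to 0.355). *SNORD13*, a small nucleolar RNA gene that kept its direction, had 5.07, 4.32 and 4.36 with R1881, against 6.60, 6.56 and 6.63 with vehicle, and -0.23 with the ERRγ siRNA (interaction adjusted p = 0.0948). *MCL1*, *JUN* and *LARP6*, named above, also kept their direction but changed by -0.24, -0.28 and -0.25 with the ERRγ siRNA. None of these 3 was called there (adjusted p = 0.258, 0.192 and 0.347), and replicate 2 was the lowest R1881 array with the control siRNA in each. The part of RNA quality in these values was not tested, nor was that of R1881 replicate 2 beyond the fit without that array.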

How the data were processed

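Per the file headers, the authors deposited a table of raw signal intensity for each array with a detection p-value for each probe. A second deposited table held the authors' normalized values, whose range is that of log2 signal. The sources used here give neither its normalization method nor the platform or the genome build of the probes. From the raw intensities, limma 3.58.1 (R 4.3.3) corrected background with nec from the detection p-values (offset 16) and quantile-normalized all 12 arrays. The 92 control probes were left out, and a probe was kept with a detection p under 0.05 on at least 3 arrays (21959 probes). Names came from the table's RefSeq accession (28588 probes), its symbol where current (2477) or its name as given (16258), through RefSeq on GRCh38.p14. The brightest kept probe stood for a gene, and 12719 of 17123 genes had a symbol other than a LOC, clone or open reading frame number. One limma fit (lmFit, eBayes) had a mean per group over 12 arrays. Adjusted p-values are two-sided Benjamini-Hochberg values over all genes, or over probes where probes are compared. Figures and counts used Python 3.11.15, pandas 2.3.3 and matplotlib 3.10.9.

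Tested on simulated data for R1881 against vehicle with control siRNA over 17123 genes, the fit recovered 56.7% of changes of 0.5, 94.0% of 1 and 100% of 2 on the log2 scale, with 13 false calls. Only 67, 67 and 66 genes were changed by these amounts, with independent noise, whereas 40% of genes were called in the data. Recovery and false calls in the data may therefore differ from these. The number of arrays limits the precision. Members and the 68 gene lists were chosen with earlier results of these data known. Genes were named by rule: the 15 largest changes each way with groups apart, the 10 largest bounds each way, up to 2 rising and 2 falling members of a list, the 8 genes with the most different opposite probes, the 8 longest runs, and *KLK3*, *FKBP5* and *TMPRSS2* as checks of the treatment. Some items are not reported here. Replicate numbers did not pair the arrays: deviations of same-numbered arrays correlated at -0.12, -0.0426 and 0.0285. Alternatives were another or no background correction, the authors' table, median scaling, other filters, the mean of a gene's probes, only the 6 arrays, a replicate block, array weights and leaving out each array.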

Additional observations from a re-analysis of the deposited data

How the results depend on the processing

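Counts of called genes were within 1.5 times under all alternatives run. Scaling to a common median gave 2568 higher and 3553 lower, the replicate block 2966 and 3720, and leaving out 1 array 2668 to 2976 and 3364 to 3670. Genes changed at least 4-fold numbered 189, but 66 without background correction, 98 with an offset of 50 and 44 in the authors' table (184 to 196 leaving out 1 array), where a higher floor under dim signals shrinks their changes by construction in the first 2 settings; the cause in the authors' table was not tested. Runs of neighbours numbered 15, and 2, 8 and 1 under the same 3 settings and 7 with no filter (12 to 17 leaving out 1 array). Requiring a detection p under 0.01 on at least 6 arrays to keep a probe left 74 genes detected only with R1881 and 89 only with vehicle. With 1 array fewer, when fewer arrays must be detected, these were 212 to 257 and 310 to 379. Genes with opposite probes numbered 37 to 55 leaving out 1 array. The share of called genes with the same direction in the ERRγ siRNA arrays was 92.2 to 96.0%. Of 303 named genes 288 kept their direction and call under every alternative. Averaging a gene's probes turned *RPS26* to 0.11, *LEP* to 0.31, *MCM8* to 0.14 and *SDHAP1* to 0.09; these have oppositely called probes. Of 1088 list medians recomputed, 74 changed sign. Signals near background limit what dim genes can show.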
